A study of Arabidopsis thaliana with 4 samples.

Results

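The response of wild-type Arabidopsis thaliana to 3 h of darkness was described from a pair of Affymetrix ATH1 arrays, the wild-type array from darkened plants and the wild-type array from plants kept in the light, which are 2 of the 4 arrays of the series. Both wild-type samples were Col-0 (stock N1092), sown on agar, grown for 7 days and held for 24 h in a high-light cabinet at 240 microEinsteins with 16 h of light and 8 h of dark a day. The dark sample was then wrapped in aluminium foil for 3 h, and the light sample stayed uncovered in the same cabinet for 3 h. The other 2 arrays hold sfr6, a line from EMS (chemical) mutagenesis in the Col-0 background, darkened or left in light by the same steps. They are used here for values set beside those of wild type. Each group has 1 array, so no value has a replicate error, no test was possible, and "higher" and "lower" describe these arrays alone. The labels do not say how many plants were pooled, and in whole plants fewer cells of a type and less RNA per cell cannot be told apart.

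In light, leaves fix carbon by photosynthesis and export sugar, and in darkness they live on stored starch and, once sugar runs short, on protein, lipid and amino acids. The kinase SnRK1 senses the falling energy status and, with bZIP transcription factors, switches on genes of amino acid breakdown and autophagy while growth genes are switched off. Light itself is read by phytochromes and cryptochromes, which act through factors such as HY5 and HYH on flavonoid and photosynthesis genes.

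The labels call the tissue cell culture, while the treatment text speaks of plants on agar. Of 16 green-leaf markers 4 were named and measured, and their summed MAS5 signal was 9749 in dark and 10546 in light. RCA, the Rubisco activase, read 3289.8 in dark and 3522 in light. The root beta-glucosidase PYK10 read 2081 in dark and 3004 in light, while the root-hair expansins EXPA7 and EXPA18 lay between 18.4 and 36.2 on both arrays, close to the floor of 22.1 under which signals were set to the floor. FMA (FAMA), a guard-cell regulator, read 38.7 in dark and 36.0 in light. No seed-storage or flower marker was analysed here. The mean signal without the lowest and highest 2% was the same on all arrays to 3 digits. Over 18 spike-in control probe sets the log2 difference, dark minus light, ran from -0.38 to 0.37 with a median of -0.04 and an SD of 0.20. This SD stands in for a technical error only. The probe sets repeat a few control transcripts, and they leave out the spread between plates of plants. For 88 genes with a pair of measured probe sets, the log2 differences of the pair lay a median of 0.23 apart, and 90% lay within 0.62. Of the 12 such genes with a probe set at 2-fold or more, all 12 had both probe sets in the same direction and 5 had both at 2-fold. For one GAPDH control the 3' probe set over the 5' one gave 1.35 in dark and 1.13 in light, and for another 0.949 in dark and 0.989 in light. The actin pair gave 1.77 in dark and 1.62 in light. The part of RNA quality in the results below was not tested. All actin, GAPDH and ubiquitin control probe sets were lower in dark. Their log2 differences ran from -0.57 to -0.45 for actin, -0.71 to -0.45 for GAPDH and -0.48 to -0.06 for ubiquitin. Many list medians below are no larger than these, and how far the 2 are linked was not tested.

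Of 22746 probe sets, 14513 reached the floor on at least 1 of the wild-type arrays. At least 2-fold higher in dark were 939 of them (6.47%) and at least 2-fold lower 1043 (7.19%), and at 4-fold the counts were 213 (1.47%) and 153 (1.05%). Where the dimmer signal lay under the floor, the fold is a bound and is given as "at least". The measured probe sets named 7753 genes, each represented by its brightest probe set. Among these genes 493 (6.36%) were at least 2-fold higher and 494 (6.37%) at least 2-fold lower in dark, with 102 (1.32%) and 69 (0.89%) at 4-fold, and the median log2 difference was -0.04. Only 1116 of them carry a gene symbol, and of those 75 (6.72%) were higher and 103 (9.23%) lower. These shares are the background beside which each count below is set. Of the 690 genes on at least 1 gene list below, 59 were at least 2-fold higher and 83 at least 2-fold lower. The lists were chosen with earlier results of these data known, so a share above the background describes a list and does not test it. With the spike-in controls as the common level in place of the trimmed means, the split of named genes was 618 higher to 358 lower (63.3% higher), against 49.9% higher as deposited. This centring moved the median of the antenna genes from -0.14 to 0.00, more than the median paired spike-in difference of -0.04. The split therefore shows the effect of another common level and does not measure a scaling offset. The floor moved both counts of named genes: at the 20th percentile 671 were higher and 921 lower, and at the 60th 346 were higher and 235 lower.

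**Figure D1:**
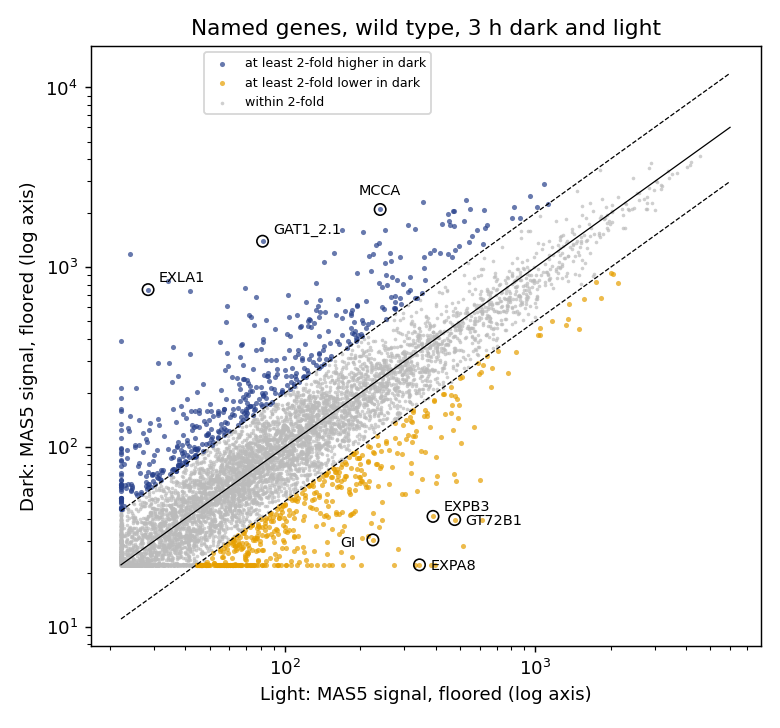
Floored MAS5 signals of 7753 named genes in wild type, dark (vertical, log axis) against light (horizontal, log axis), with lines at equality and at 2-fold. The 493 genes at least 2-fold higher in dark lie above the upper dashed line and the 494 lower ones under the lower line, and the row of points along the bottom holds genes whose dark signal was under the floor.

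The share of probe sets higher in dark grew with the signal, while the share lower did not. In the brightest 20% of probe sets, by the higher of the 2 signals, 13.5% were at least 2-fold higher and 8.20% lower in dark. In the 20% above the dimmest 20% the shares were 3.96% higher and 9.27% lower. The dimmest 20% cannot reach 2-fold above the floor. By chromosome the share of named genes higher in dark lay between 5.34% (chromosome 5) and 7.26% (chromosome 1), and the share lower between 4.99% (chromosome 2) and 7.23% (chromosome 3).

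Most of the strongest responders carry a locus tag and no symbol. The highest log2 difference among named genes was that of AT1G25400, at 1179 in dark and 24.1 in light (48.9-fold). AT3G62950 read 834 in dark and 34.1 in light (24.4-fold), and AT3G45730 read 388 in dark and 21.5 in light (at least 17.5-fold). The other genes without a symbol among the 20 highest lay between 7.69-fold and 17.7-fold, some of these as bounds; one of them, AT5G61590, has the synonym DEWAX, a repressor of wax synthesis, and read 1574 in dark and 205 in light. At the other end, AT3G44450 read 28.1 in dark and 512 in light (18.2-fold lower). AT1G60590 read 11.5 in dark and 399 in light (at least 18.1-fold lower), and AT1G57590 read 20.3 in dark and 382 in light (at least 17.3-fold lower). The smallest difference among the 20 lowest genes was 6.63-fold, and 6 of them have symbols, namely EXPA8, GH9C2, GT72B1, EXPB3, GI and TBL26.

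Transcripts of energy starvation were higher in dark without exception on the list. All 5 measured markers were at least 2-fold higher, with a median log2 difference of 2.85 against -0.04 over all named genes; these markers were chosen with earlier results of these data known. GAT1_2.1 (AT1G15040), a glutamine amidotransferase-like gene and a known target of sugar and energy signals, read 1395 in dark and 81.3 in light (17.2-fold). EXO (AT4G08950), the growth regulator EXORDIUM, read 1074 in dark and 144 in light (7.48-fold). ATL8 (AT1G76410), a RING-type ubiquitin ligase, read 526 in dark and 73.0 in light (7.22-fold). The 5 markers thus had dark signals from 526 to 1486 and light signals from 73.0 to 557. PPDK (AT4G15530), pyruvate orthophosphate dikinase, which turns pyruvate into phosphoenolpyruvate, was the brightest on both arrays and had the smallest difference, at 1486 in dark and 557 in light (2.67-fold).

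The subunits of SnRK1 differed from one another. AKINBETA1 (AT5G21170), a beta subunit, read 1324 in dark and 230.1 in light (5.75-fold). KINbeta2 (AT4G16360) read 94.1 in dark and 125 in light, and KINbeta3 (AT2G28060) read 86.6 in dark and 89.0 in light, neither at 2-fold. Among the bZIP factors that work with SnRK1, BZIP53 (AT3G62420) read 774 in dark and 244 in light (3.17-fold), while bZIP44 (AT1G75390) was at 41.6 in dark and 63.3 in light.

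In amino acid breakdown most measured genes were higher in dark, with 8 of 13 measured genes at least 2-fold higher, none 2-fold lower and a median log2 difference of 1.93. Both subunits of methylcrotonyl-CoA carboxylase, which acts on the carbon skeleton of leucine, were higher: MCCA (AT1G03090) read 2095 in dark and 239.9 in light, and MCCB (AT4G34030) read 1079.9 in dark and 264 in light. IVD (AT3G45300), isovaleryl-CoA dehydrogenase, the step before it, read 1712 in dark and 456 in light (3.75-fold). Lysine breakdown was represented by LKR/SDH (AT4G33150), a bifunctional enzyme, at 699.9 in dark and 102 in light (6.84-fold). ASPGB1 (AT3G16150), an asparaginase, read 511 in dark and 83.7 in light (6.10-fold), whereas its relative ASPGA1 (AT5G08100) read 92.3 in dark and 106 in light. Methionine gamma-lyase, MGL (AT1G64660), read 455 in dark and 91.4 in light (4.97-fold). ALDH6B2 (AT2G14170), methylmalonate-semialdehyde dehydrogenase of valine breakdown, was the brightest of the list in dark, at 2112, against 548 in light (3.85-fold).

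Electrons from isovaleryl-CoA dehydrogenase pass through the electron transfer flavoprotein to the respiratory chain. Its oxidoreductase ETFQO (AT2G43400) read 470.0 in dark and 123 in light (3.82-fold). The flavoprotein's own subunits were under 2-fold: ETFBETA (AT5G43430) read 205 in dark and 139.6 in light, and ETFALPHA (AT1G50940) read 92.1 in dark and 77.5 in light. D2HGDH, another electron donor to the flavoprotein, read 73.6 in dark and 81.9 in light. Among the other aldehyde dehydrogenases, ALDH7B4 came nearest to the threshold, at 1597 in dark and 876 in light, and the 8 measured members had a median log2 difference of -0.01. Of 3 genes of purine and ureide breakdown, which frees nitrogen from nucleobases, none reached 2-fold, and their median was 0.05.

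**Figure D2:**
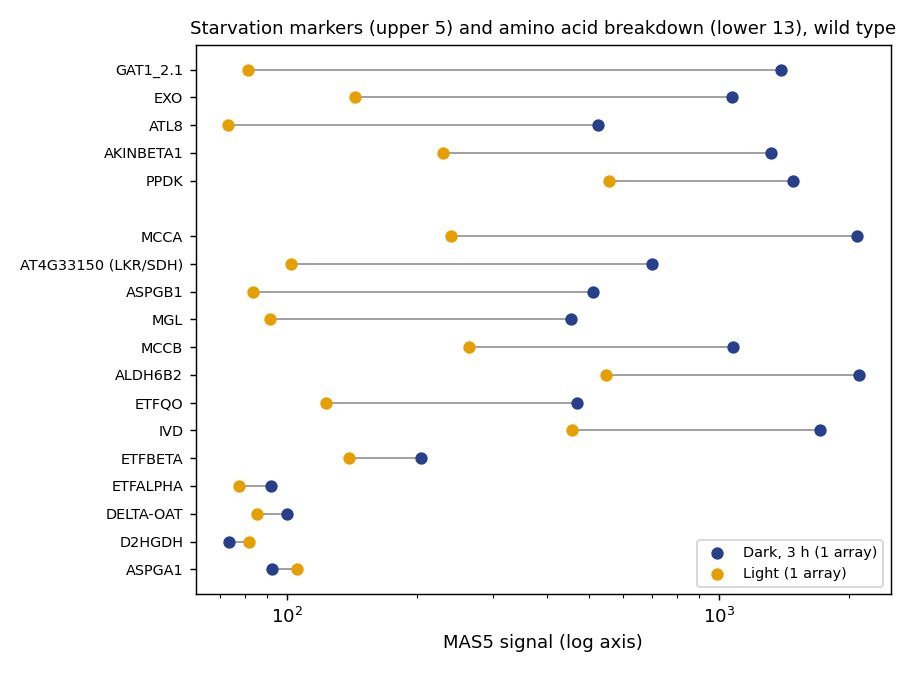
MAS5 signal (log axis) in wild type in dark and in light for 5 starvation markers and 13 genes of amino acid breakdown, 1 array each, joined by a line per gene. The first 13 genes from the top are all at least 2-fold brighter in dark, and the 5 at the bottom lie within 2-fold.

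Autophagy genes were mostly higher in dark, with a single gene at 2-fold. Of 10 measured genes, all but 1 of them ATG8 proteins that coat the autophagosome or their close relatives, 9 were higher in dark and ATG8E (AT2G45170) reached 2-fold, at 1162 in dark and 216 in light (5.39-fold). ATG8F read 1592 in dark and 934 in light, and ATG8H read 195 in dark and 126 in light. Over the list the median log2 difference was 0.39; ATG8E had the largest difference and ATG8F the highest dark signal. In the machinery that sorts membrane proteins to the vacuole, 10 of 16 genes were higher, 1 at 2-fold, with a median of 0.18. ELC (AT3G12400), an ESCRT-I subunit that recognises ubiquitinated cargo, read 313 in dark and 99.4 in light (3.15-fold), and VPS60.1 read 101 in dark and 51.1 in light. Within the same list CCZ1a (AT1G16020), part of the complex that activates the late endosomal Rab GTPase, was lower, at 35.8 in dark and 81.2 in light.

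Lipid genes gave one large difference. SDP1 (AT5G04040), the triacylglycerol lipase that starts oil breakdown in seedlings, read 816 in dark and 133 in light (6.15-fold). The peroxisomal steps after it were not higher: AIM1 (AT4G29010), of beta-oxidation, read 277 in dark and 340.4 in light, and ICL (AT3G21720), isocitrate lyase of the glyoxylate cycle, read 47.2 in dark and 64.0 in light. In sphingolipid metabolism all 4 measured genes were higher in dark, none at 2-fold, with a median of 0.73; TSC10A, a ketosphinganine reductase, read 195 in dark and 99.9 in light. Among 6 genes of membrane and storage lipids, FaTA, a plastid thioesterase that releases new fatty acids, read 18.4 in dark and 45.4 in light (at least 2.05-fold lower). ACLA-3 (AT1G09430), a subunit of ATP-citrate lyase, which makes cytosolic acetyl-CoA, read 621 in dark and 291 in light (2.13-fold), while its paralogue ACLA-2 read 133 in dark and 202 in light. Of 13 respiratory genes none was 2-fold higher and 2 were lower, with a median of -0.23. These were NDB2 (AT4G05020), an external alternative NAD(P)H dehydrogenase, at 40.3 in dark and 109 in light, and CYTC-2 (AT4G10040), a cytochrome c, at 136 in dark and 275 in light.

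Transporters of the NRT1/PTR family were lower in dark. The list of nitrate transport and assimilation had 6 measured genes, all of this family, of which 5 were at least 2-fold lower and none higher, with a median log2 difference of -1.33. NPF3.1 (AT1G68570), known to carry gibberellin and nitrite, read 37.6 in dark and 221 in light (5.88-fold lower). GTR1 (AT3G47960), a glucosinolate importer, read 43.8 in dark and 191 in light (4.35-fold lower), and GTR2 (AT5G62680), its partner, 83.3 in dark and 123 in light. NPF6.4 (AT3G21670) was the brightest, at 476 in dark and 1331 in light (2.80-fold lower). NPF4.3 (AT1G59740) read 28.6 in dark and 64.5 in light, and NPF6.2 (AT2G26690) read 215 in dark and 459 in light.

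Sugar carriers were split by gene. Of 13 measured, 1 was at least 2-fold higher and 3 lower, with a median of -0.52. TMT1 (AT1G20840), which loads hexoses into the vacuole, read 499.7 in dark and 123 in light (4.06-fold), and its paralogue TMT2 (AT4G35300) went the other way, at 68.0 in dark and 154 in light (2.27-fold lower). SWEET13 (AT5G50800), a sucrose exporter, read 16.0 in dark and 77.7 in light (at least 3.52-fold lower), and SAG29 (AT5G13170), which is SWEET15, read 41.4 in dark and 119 in light (2.88-fold lower). SWEET17, a vacuolar fructose carrier, lay just under the threshold, at 230.4 in dark and 461 in light. In starch metabolism none of 4 genes reached 2-fold and all 4 were lower in dark; PWD, which phosphorylates starch for its breakdown, read 106 in dark and 195 in light, and DPE1, a plastid disproportionating enzyme, read 47.9 in dark and 78.9 in light.

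Cell wall families held some of the largest differences, in both directions. Expansins loosen the wall as cells grow. Of 13 measured, 2 were at least 2-fold higher and 4 lower, with a range of log2 differences from -3.96 to 4.73 and a median of -0.42, which was between -0.94 and -1.23 in the settings with another floor or filter. The 2 higher ones were both expansin-like A genes: EXLA1 (AT3G45970) read 751 in dark and 28.4 in light, and EXLA2 (AT4G38400) read 94.0 in dark and 1.97 in light (at least 4.25-fold). The 4 lower ones were alpha and beta expansins. EXPA8 (AT2G40610) read 22.1 in dark and 345 in light (at least 15.6-fold lower), EXPA15 (AT2G03090) read 23.0 in dark and 113 in light (4.93-fold lower), and EXPA4 (AT2G39700) read 59.7 in dark and 167 in light. EXPB3 (AT4G28250) read 41.1 in dark and 390.1 in light (9.49-fold lower). No alpha or beta expansin was 2-fold higher.

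The xyloglucan endotransglucosylase/hydrolases, which cut and rejoin xyloglucan chains, split likewise, with 1 of 7 higher and 2 lower. XTH18 (AT4G30280) read 158 in dark and 42.2 in light (3.75-fold), and XTH32 (AT2G36870) read 106 in dark and 503 in light (4.75-fold lower). XTH19, the paralogue next to XTH18 in the gene numbering, read 8.44 in dark and 45.6 in light, at least 2-fold lower. EXGT-A3 was the brightest of the family and within 2-fold, at 1453 in dark and 877 in light.

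Of 33 genes of cellulose, xylan and wall assembly, 4 were at least 2-fold higher and 5 lower, with a median of -0.19. The glycosyl hydrolase 9 gene GH9C2 (AT1G64390), a cellulase, read 20.2 in dark and 273 in light (at least 12.3-fold lower), and GH9B8 read 7.06 in dark and 46.5 in light. Among the TRICHOME BIREFRINGENCE-LIKE genes, whose known members add acetyl groups to wall polymers, TBL26 (AT4G01080) read 17.3 in dark and 150.3 in light (at least 6.80-fold lower) and TBL28 read 26.7 in dark and 73.9 in light. TBL45, in contrast, read 286 in dark and 133 in light, and TRICHOME BIREFRINGENCE itself (AT5G06700) read 364 in dark and 143 in light. The cellulose synthase-like genes that were 2-fold higher were CSLA03 (AT1G23480), of the glucomannan synthases, at 191 in dark and 68.1 in light, and CSLC04 (AT3G28180), of xyloglucan backbone synthesis, at 248 in dark and 106 in light. All 6 genes of arabinogalactan proteins and wall glycoproteins were lower in dark, none at 2-fold, with a median of -0.64.

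**Figure D3:**
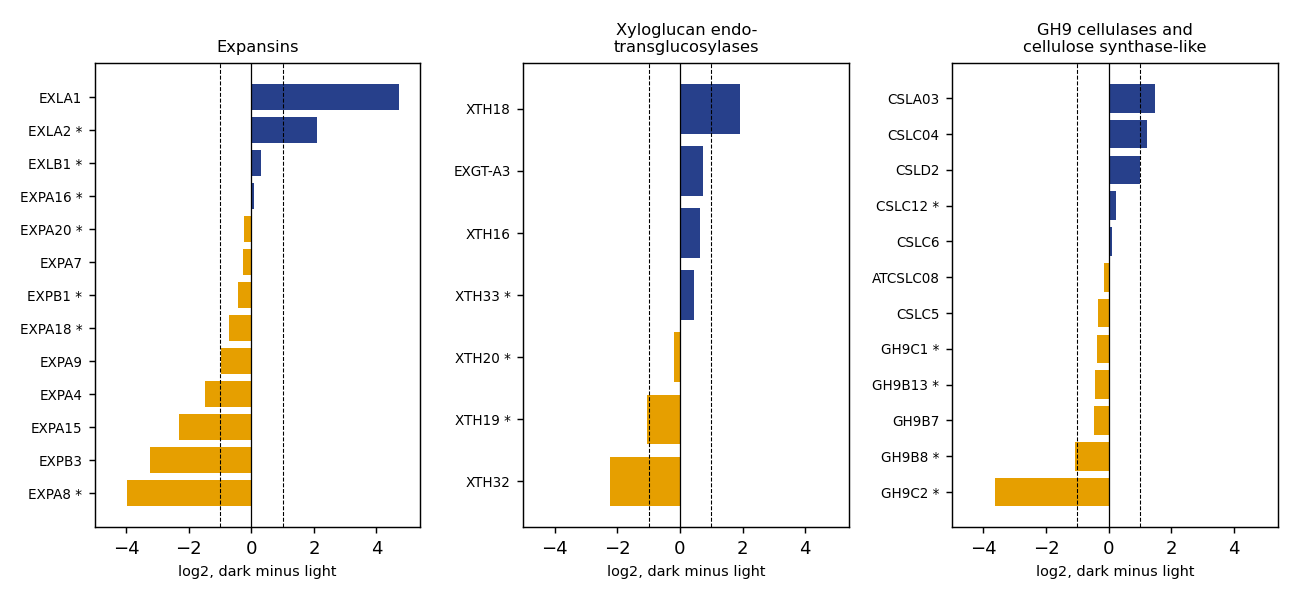
log2 differences of floored signal (horizontal, dark minus light, wild type) for expansins, xyloglucan endotransglucosylases and the GH9 and cellulose synthase-like genes of the wall list, 1 bar per gene, with dashed lines at 2-fold. An asterisk marks a gene whose dimmer signal was under the floor. Expansin-like A genes stand at the top of the first panel and EXPA8, EXPB3 and EXPA15 at its foot.

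Both receptors that watch over the wall on the list of RALF peptides and their receptor kinases were higher in dark. The median of the 9 genes of that list was -0.14, and it ran from -0.15 to 0.32 over other scalings. FER (AT3G51550), the receptor kinase FERONIA, read 811 in dark and 295 in light (2.75-fold), and THE1 (AT5G54380), its relative THESEUS1, read 227 in dark and 71.0 in light (3.19-fold). Among the RALF peptides, the family that includes FERONIA's ligands, RALFL22 (AT3G05490) read 527 in dark and 104 in light (5.08-fold). The other 6 RALF genes lay within 2-fold, from RALFL33 at 423 in dark and 303 in light to RALFL32 at 145 in dark and 219 in light.

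Genes of specialised metabolism were mainly lower in dark. In flavonoid synthesis 4 of 5 measured genes were at least 2-fold lower and none 2-fold higher, with a median of -1.37. UF3GT (AT5G54060), an anthocyanin glycosyltransferase, read 9.13 in dark and 105 in light (at least 4.76-fold lower). The flavonol rhamnosyltransferase UGT78D1 (AT1G30530) read 31.4 in dark and 109 in light. UGT78D2 (AT5G17050), a flavonol and anthocyanin glucosyltransferase, read 83.3 in dark and 215 in light. In each of these genes the dark signal was at least 2-fold below the light signal. CHIL (AT5G05270), a chalcone isomerase-like protein that aids the first steps, read 65.4 in dark and 162 in light. DFR, dihydroflavonol reductase, was the exception, at 84.2 in dark and 60.9 in light. In the lignin branch, HCT (AT5G48930) alone of 6 genes passed 2-fold, at 275 in dark and 672 in light.

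Glucosinolate genes, which make the sulphur-rich defence compounds of the cabbage order, had the lowest median of all lists, -2.04, with 5 of 6 genes at least 2-fold lower. BCAT4 (AT3G19710), the aminotransferase that starts chain elongation of methionine, read 61.0 in dark and 236 in light (3.87-fold lower). GSTU20 (AT1G78370), a glutathione transferase of core synthesis, read 69.3 in dark and 406 in light (5.86-fold lower), and UGT74B1 (AT1G24100), which adds the glucose, read 68.9 in dark and 174 in light. AOP1 (AT4G03070), a side-chain-modifying dioxygenase family gene, read 23.1 in dark and 106 in light (4.57-fold lower). The list includes GTR1 and GTR2, described with the transporters. MYC4 (AT4G17880), a bHLH activator of glucosinolate and jasmonate genes, read 28.8 in dark and 79.3 in light, and its relative MYC3 read 110.4 in dark and 78.9 in light.

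Detoxification and conjugation families followed the same direction with exceptions. All 9 measured glutathione transferases were lower in dark, 4 of them at least 2-fold, with a median of -0.76. Beside GSTU20 these were GSTU25 (AT1G17180), at 23.3 in dark and 78.0 in light, GSTU22, at 31.5 in dark and 89.1 in light, and GSTU27, at 87.8 in dark and 179.6 in light. Of 33 UDP-glycosyltransferases, which attach sugars to hormones and metabolites, 11 were at least 2-fold lower and 3 higher, with a median of -0.44. GT72B1 (AT4G01070), which is UGT72B1 and acts on phenolics, read 39.5 in dark and 476 in light (12.1-fold lower). UGT73C1 (AT2G36750) read 29.6 in dark and 147 in light (4.98-fold lower). The 3 higher ones were UGT85A4 (AT1G78270), at 98.1 in dark and 19.0 in light, UGT71C2 (AT2G29740), at 99.7 in dark and 25.2 in light, and UGT71C5, at 114 in dark and 51.1 in light. Relatives in the same subgroup were lower in dark and under 2-fold on the floored scale: UGT71C1 read 14.2 in dark and 40.9 in light, and UGT71C4 read 321 in dark and 409 in light.

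Among beta-glucosidases 2 of 11 were at least 2-fold lower and 1 higher, with a median of -0.53: BGLU40 (AT1G26560) read 49.4 in dark and 244 in light, BGLU44 read 111 in dark and 305 in light, and BGLU16 read 311 in dark and 117 in light. Of 13 cytochromes P450, nearly all of the CYP71B group, 3 were lower and 1 higher; CYP71B26 (AT3G26290) read 113 in dark and 420.1 in light, and CYP71B29 read 58.1 in dark and 28.0 in light. All 5 class III peroxidases, which act in the wall, were lower, 2 at 2-fold: PRXR1 (AT4G21960) read 919.6 in dark and 2037 in light, and Prx37 read 27.4 in dark and 64.5 in light. In ascorbate metabolism, VTC4 (AT3G02870), a phosphatase of ascorbate synthesis, read 95.2 in dark and 243 in light, and ATMDAR2 (AT5G03630), a monodehydroascorbate reductase, read 141 in dark and 305 in light. GME, an earlier enzyme of the same synthesis, read 1866 in dark and 1327 in light. All 5 methionine sulphoxide reductases, which repair oxidised proteins, were lower and under 2-fold, with a median of -0.56.

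**Figure D4:**
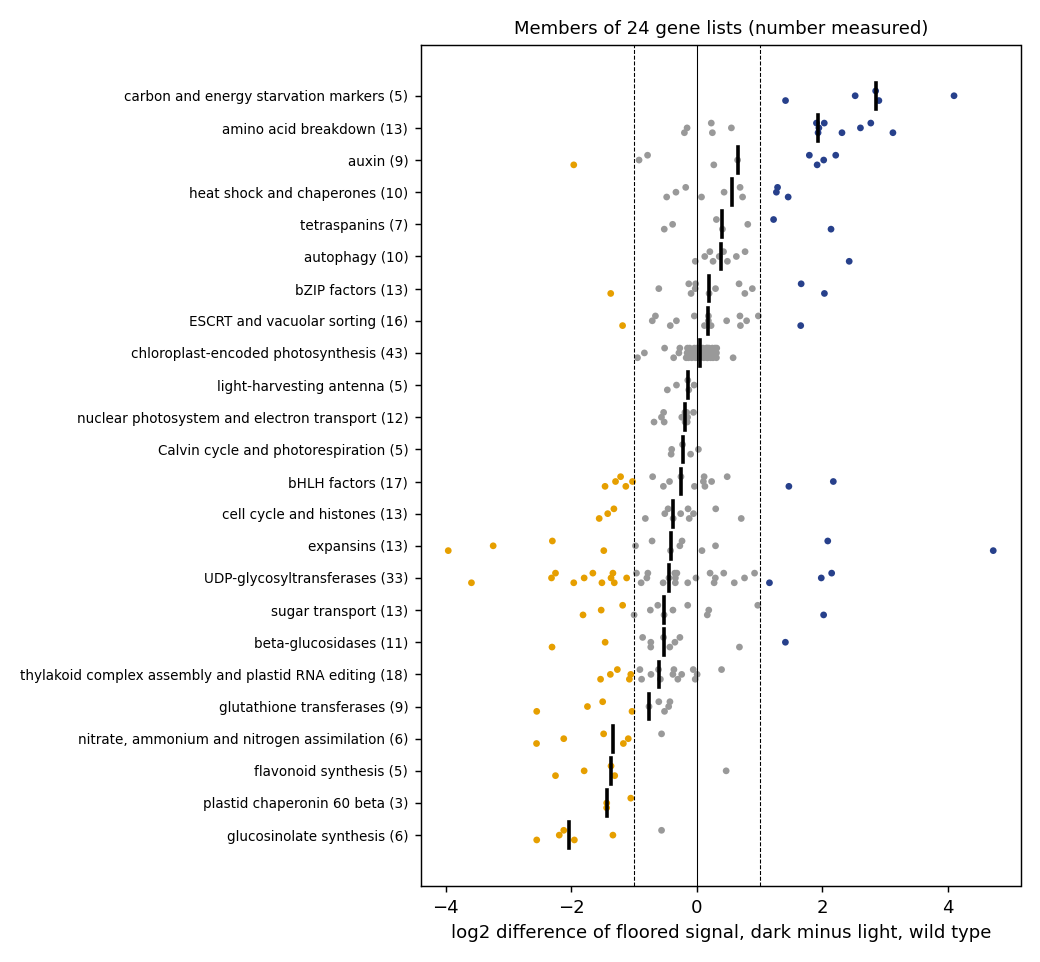
log2 differences of floored signal (horizontal, dark minus light, wild type) of the members of selected gene lists, 1 point per gene, with the number measured in brackets, a bar at the list's median and dashed lines at 2-fold. Starvation markers and amino acid breakdown stand at the top, glucosinolate and flavonoid synthesis at the foot, and the chloroplast-encoded and photosystem genes lie within 2-fold.

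Light signalling and the clock were represented by few named genes. GI (AT1G22770), GIGANTEA, a clock protein whose transcript peaks late in the day, read 30.4 in dark and 224 in light (7.37-fold lower). The other 6 measured clock genes (LIP1, FIO1, TIC, TKL, XCT and STIPL1) lay within 2-fold, and CCA1, LHY and TOC1 were not among them. Of 5 light-signalling genes 2 were at least 2-fold lower, against 6.37% of all named genes and 9.23% of those with a symbol. That list held no phytochrome, no cryptochrome and not HY5. HYH (AT3G17609), the homologue of HY5, read 75.2 in dark and 195 in light (2.59-fold lower). AFR, an F-box protein of far-red signalling, read 157 in dark and 325 in light (2.07-fold lower). PORB (AT4G27440), a light-dependent protochlorophyllide reductase, was higher, at 688 in dark and 276 in light (2.49-fold), and the other 8 genes of chlorophyll synthesis and breakdown lay within 2-fold.

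Photosynthesis genes themselves lay close to equality. None of 12 nuclear photosystem and electron transport genes reached 2-fold, although all 12 were lower in dark, with a median of -0.19; the farthest was NdhN, a subunit of the chloroplast NADH dehydrogenase-like complex, at 407 in dark and 653 in light. None of 5 genes of the antenna list (LHCB4.1, LHCB4.2, LHCB4.3, LIL3:1 and LIL3:2) reached 2-fold, and none of 5 Calvin cycle and photorespiration genes did. Their medians were -0.14 and -0.23. With spike-in centring the antenna median was 0.00, a move larger than the median paired spike-in difference of -0.04. The markers LHCB1.1, LHCB2.1 and RBCS1A were not among the named genes. Of 43 chloroplast-encoded photosynthesis genes none reached 2-fold and 25 were higher, with a median of 0.05. The large Rubisco subunit rbcL was the lowest of them, at 279 in dark and 538 in light, and ndhH the highest, at 176 in dark and 118 in light. The other 26 chloroplast-encoded genes, for ribosomal proteins, RNA polymerase and others, had a median of 0.08, with none at 2-fold.

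Nuclear genes that build the thylakoid complexes differed from the complexes' own genes. Of 18 genes of thylakoid assembly and plastid RNA editing 5 were at least 2-fold lower and none higher, with a median of -0.60; the difference between the lists was not tested. CCB3 (AT5G36120), which helps attach haem to cytochrome b6, read 68.2 in dark and 197 in light (2.90-fold lower). CRR42 (AT5G20935), needed for the chloroplast NADH dehydrogenase-like complex, read 66.3 in dark and 172 in light. LPA66, an RNA editing factor of photosystem II, read 34.6 in dark and 83.3 in light, and CRR21, an editing factor, read 48.3 in dark and 100.2 in light. CURT1D (AT4G38100), a thylakoid-bending protein, read 50.5 in dark and 106 in light. All 3 measured plastid chaperonin 60 beta genes, which fold plastid proteins, were at least 2-fold lower: Cpn60beta2 (AT3G13470) read 172 in dark and 466 in light, Cpn60beta3 (AT5G56500) read 26.0 in dark and 70.4 in light, and Cpn60beta4 (AT1G26230) read 70.0 in dark and 145 in light. Among 12 glutaredoxins and thioredoxins, ROXY2 was the single gene at 2-fold, at 62.4 in dark and 23.6 in light, while the plastid NADPH-dependent reductase NTRC read 512 in dark and 755 in light.

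Several genes placed on the auxin list were higher in dark. Of 9 measured, 4 were at least 2-fold higher and 1 lower, with a median of 0.65, or 0.98 at a 20th-percentile floor, 0.40 at a 60th-percentile floor and 0.27 over genes above the floor on both arrays. ARL (AT2G44080), ARGOS-LIKE, a promoter of cell expansion, read 268 in dark and 57.7 in light (4.64-fold). HAT2 (AT5G47370), an auxin-induced homeodomain factor, read 509 in dark and 125 in light (4.06-fold). Enzymes that conjugate auxin to amino acids were among them: GH3.3 (AT2G23170) read 83.6 in dark and 10.6 in light. WES1 (AT4G27260), which is GH3.5, read 305 in dark and 87.9 in light (3.47-fold). IAGLU (AT4G15550), which joins auxin to glucose, was the one lower gene, at 93.5 in dark and 364 in light (3.89-fold lower), and YUC2 (AT4G13260), of auxin synthesis, read 36.3 in dark and 68.7 in light. None of 5 gibberellin genes reached 2-fold; the receptor GID1A read 193 in dark and 151 in light.

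Transcription factors were spread to both sides. Among 17 bHLH factors 2 were at least 2-fold higher and 5 lower, with a median of -0.25. bHLH121 (AT3G19860), an activator of iron uptake genes, read 346 in dark and 76.6 in light (4.52-fold), and its partner bHLH115 read 94.3 in dark and 192 in light. The repressor PYE of the same network read 56.1 in dark and 47.6 in light. NAI1 (AT2G22770), which directs ER bodies, read 40.5 in dark and 99.4 in light, and BIM1, of brassinosteroid signalling, read 33.6 in dark and 77.9 in light. Of 13 bZIP factors 2 were higher and 1 lower; BZIP61 (AT3G58120) read 95.9 in dark and 23.4 in light, and BZIP53 and HYH are given above. The trihelix factors, named for binding sites in light-regulated promoters, were higher: GT-1 (AT1G13450) read 181 in dark and 61.8 in light, and GT2 (AT1G76890) read 163 in dark and 57.1 in light. WRKY22 (AT4G01250) was the one of 5 WRKY factors at 2-fold, at 112 in dark and 21.5 in light (at least 5.05-fold). The MYB-related factor KUA1 (AT5G47390), a regulator of cell expansion, read 406 in dark and 192 in light, and SMZ, a flowering repressor, read 31.7 in dark and 66.1 in light.

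Stress lists were small and differed in their share of genes at 2-fold, beside 6.36% of all named genes higher and 6.37% lower. Among genes with a symbol 6.72% were higher and 9.23% lower. Of 8 touch, calcium and early stress genes 2 were at least 2-fold higher and none lower, with a median of 0.69. CML38 (AT1G76650), a calmodulin-like calcium sensor induced by wounding and low oxygen, read 125 in dark and 7.59 in light (at least 5.63-fold), and the other 8 calcium sensors and channels lay within 2-fold. Of 10 heat shock and chaperone genes 3 were at least 2-fold higher and none lower, with a median of 0.56: Fes1B (AT3G53800) read 195 in dark and 71.0 in light, Fes1C (AT5G02150) read 199.7 in dark and 82.9 in light, and FKBP65 (AT5G48570) read 148 in dark and 60.5 in light. None of 13 genes of protein folding in the ER reached 2-fold; ATERDJ3B, a co-chaperone, came nearest, at 85.0 in dark and 169 in light. In the cold regulon COR15A (AT2G42540), a chloroplast protectant, read 57.9 in dark and 190.3 in light (3.29-fold lower), COR27, a night-time clock-linked gene, read 45.9 in dark and 21.6 in light, and COR47, a dehydrin, read 1059 in dark and 805 in light.

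Genes of cell division were lower or level. Of 13 cell cycle and histone genes 3 were at least 2-fold lower and none 2-fold higher, with a median of -0.38. Histone H2B genes were not alike: HTB1 (AT1G07790) read 70.4 in dark and 207 in light (2.94-fold lower), and HTB2 (AT5G22880) read 36.7 in dark and 98.3 in light (2.68-fold lower). HTB4, of the same family, read 375 in dark and 408 in light. BUB3.1 (AT3G19590), of the spindle checkpoint, read 21.9 in dark and 55.3 in light. Of 26 cytoskeletal genes 1 was higher and 1 lower, both of the IQD calmodulin-binding family: IQD22 read 59.1 in dark and 24.5 in light, and IQD23 read 15.1 in dark and 46.6 in light. The 5 beta-tubulins measured were all lower and under 2-fold, from TUB9 at 219.9 in dark and 245 in light to TUB1 at 29.6 in dark and 53.9 in light.

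Most genes of protein turnover and traffic lay within 2-fold. Proteases were at least 2-fold lower more often than all named genes (6.37%) or genes with a symbol (9.23%). Of the 690 listed genes, 83 were at least 2-fold lower. Of 35 ubiquitin-system genes 1 was at least 2-fold higher (ATL8) and 2 lower, with a median of 0.04. The lower pair were PUB19 (AT1G60190), a repressor of stress signalling, at 11.7 in dark and 70.8 in light, and PUB26, at 30.0 in dark and 65.1 in light. Of 27 proteases 1 was higher and 5 lower, with a median of -0.35; the serine carboxypeptidase-like SCPL34 (AT5G23210) read 257 in dark and 85.6 in light, the subtilase SBT1.3 read 93.5 in dark and 225 in light, and ARA12, a subtilase of seed mucilage release, read 319 in dark and 644 in light. Among 13 genes of the exocyst and vesicle fusion, SEC15B, an exocyst subunit, read 166 in dark and 71.3 in light, and the list's median was 0.23. Of 7 tetraspanins, small membrane proteins that organise membrane patches, 2 were at least 2-fold higher: TET10 (AT1G63260) read 169 in dark and 38.3 in light (4.41-fold), and TET8 (AT2G23810), known from secreted vesicles, read 727 in dark and 311 in light. None of 9 genes of ribosome biogenesis and translation and none of 5 Mediator subunits reached 2-fold, with medians of -0.19 and 0.32.

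Grouping by symbol stem gave 29 stems with at least 5 measured nuclear genes, and genes of 1 stem need not be related. Among the lowest medians were those of GSTU (-0.90 over 8 genes), CRR (-0.88 over 5), EXPA (-0.84 over 8), BGLU (-0.58 over 10), SCPL (-0.51 over 13), SWEET (-0.38 over 7) and UGT (-0.35 over 29). Within SCPL, 3 of 13 genes were at least 2-fold lower, among them scpl29, at 75.8 in dark and 157 in light, and scpl20, at 42.3 in dark and 87.4 in light. Among the highest medians were those of CML (0.48 over 5), VPS (0.47 over 9), TET (0.41 over 7), ATG (0.39 over 8), BZIP (0.25 over 8) and XTH (0.13 over 6). No median of a stem reached 2-fold.

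The sfr6 pair of arrays, which shares no array with the wild-type pair, gave values to set beside these. In sfr6, 544 of 7429 named genes over the floor (7.32%) were higher in dark by 2-fold or more, and 465 (6.26%) were lower. Of 483 genes at least 2-fold higher in wild type and measured in sfr6, 362 (74.9%) were also at least 2-fold higher there. Of 488 lower ones 300 (61.5%) were also at least 2-fold lower. Of the genes at least 4-fold apart in wild type, 94 of 100 higher ones and 67 of 69 lower ones were at least 2-fold apart in the same direction in sfr6. The starvation list had a median log2 difference of 2.85 in wild type and 2.71 in sfr6, amino acid breakdown 1.93 and 1.87, flavonoid synthesis -1.37 and -1.65, and glucosinolate synthesis -2.04 and -1.94. Not all lists were alike in this way. The medians differed in sign for heat shock and chaperones (0.56 in wild type and -0.22 in sfr6), clock (-0.27 and 0.32), light signalling (0.12 and -0.40) and fatty acid breakdown (-0.37 and 0.22), among others. Some of these signs depended on the floor. With the floor at the 60th percentile the wild-type median was -1.05 for light signalling and -0.01 for clock. HYH and AFR, of the light-signalling list, were lower in dark in both genotypes. Some genes at least 2-fold higher in wild type were within 2-fold in sfr6. CML38 was under the floor on both sfr6 arrays, at 10.9 in dark and 2.11 in light. XTH18 read 39.4 in dark and 44.7 in light in sfr6, and GH3.3 read 53.3 in dark and 42.3 in light in sfr6. The difference between the genotypes was not tested, and these 3 genes were picked after their values were seen.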

How the data were processed

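RNA was measured on ATH1 arrays with 1 array per group. The authors deposited intensity values computed with MAS5 (per the submitters' processing notes, no version given), not log-transformed; scanner files and detection calls were not used here. Control probe sets (64 of 22810) were left out of the comparison. From the deposited intensity values, signals under the 40th percentile of all other signals (22.1) were set to it, log2 was taken, and the light value was subtracted from the dark value in each genotype. A probe set entered when it reached the floor on at least 1 of the 2 arrays.

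In the platform annotation 13513 probe sets had a single gene, 503 had more than 1 and 8730 had no name; 13508 of the first were found in RefSeq (TAIR10.1), used for names. A gene with several probe sets took the one with the highest mean signal over the 4 arrays. Of the named genes 50 lay on probe sets whose suffix marks a match to several transcripts, 2 of them among the 987 at 2-fold.

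Counts were made from 2-fold and from 4-fold. Gene lists (71 with at least 3 measured genes, 690 genes in all) and named genes were chosen with earlier results of these data known. Named were the 20 highest and 20 lowest genes, in each list up to 5 members with the largest difference and any at 2-fold against the list's median, and up to 3 members of the 8 highest and 8 lowest symbol families; further members were named after their values were seen. The steps were tested on simulated data. Alternatives changed the floor, normalization, centring, filter and summary of probe sets. A search of promoters for motifs was planned and not run, since no promoter sequence was used here. The number of arrays limits the precision. Python 3.11.15 was used with numpy 2.4.6, pandas 2.3.3 and matplotlib 3.10.9.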

Additional observations from a re-analysis of the deposited data

Results flagged for a closer look

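Of the named genes at least 2-fold apart in both genotypes, 2 went in opposite directions, which was not tested. FKBP65 (AT5G48570), a heat-induced peptidyl-prolyl isomerase, had a log2 difference, dark minus light, of 1.29 in wild type and, with the sfr6 dark signal under the floor, at most -1.12 in sfr6, so at least 2.41 apart. AT4G34950 had 1.27 in wild type and -1.76 in sfr6, 3.03 apart. Outside the compared probe sets, the 25S ribosomal RNA control gave a signal of 364 in dark and 122 in light in wild type, a log2 difference of 1.58, and 1321 in dark and 120 in light in sfr6; it has no value in any list above, and its part in other differences was not tested.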

How the results depend on the processing

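No paired analysis was possible because every group has 1 array with the same replicate number, so the labels offer no pairs to block on. Leaving out a replicate and a test between groups are likewise not possible, and the planned promoter motif search was not run. The number of genes at least 2-fold lower in dark depended on the floor. With the floor at the 20th percentile, 1807 probe sets and 921 named genes were lower, and at the 60th percentile 568 and 235, against 1043 and 494 as reported; higher probe sets stayed between 695 and 1219 in both. With centring on the spike-in controls the median log2 difference of all probe sets was 0.08 against -0.06, and 1193 probe sets were higher and 758 lower (61.1% higher, against 47.4%). This move was larger than the median paired spike-in difference of -0.04, so it does not measure a scaling offset. Of 556 list medians under other settings, 37, from 20 lists, differed from the reported one by more than the spike-in SD of 0.20. Of 8 lists that lead a comparison 3 were among them, namely expansins, at -0.97 with the floor at the 20th percentile, -0.97 at the 60th, -0.94 with no floor and 1 added to each signal, and -1.23 over genes above the floor on both arrays, flavonoid synthesis, at -0.91 with the floor at the 60th percentile, and glucosinolate synthesis, at -1.53 there. For these 3 fewer or other genes enter, or the differences of dim genes change, by construction. Of 71 list medians 11 changed sign under another scaling, all between -0.14 and 0.04 as reported. That count leaves out other floors and filters, under which medians farther from equality also changed sign. Light signalling moved from 0.12 to -1.05 with the floor at the 60th percentile. The jasmonate and wounding list moved from 0.20 to -0.12 over genes above the floor on both arrays. Of 215 listed or highest and lowest symbol genes at 2-fold, 188 stayed at 2-fold with spike-in centring, 208 with quantile normalization and 146 of the 203 still measured with the floor at the 60th percentile, and none turned in sign in these settings.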
